A study of Mus musculus with 20 samples.

Results

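Pou4f1-positive cells of the mouse habenula were compared between embryonic day 18 (E18) and postnatal day 4 (P4). A well was taken as a cell when it held at least 1000 counts outside the spike-in and mitochondrial rows, at least 500 genes and at most 20% mitochondrial counts, and as Pou4f1-positive when it held at least 1 count of Pou4f1. This gave 724 Pou4f1-positive cells of 986 kept on 4 plates, out of 4811 kept wells in the whole study: 75 cells on E18 replicate 1, 94 on E18 replicate 2, 264 on P4 replicate 1 and 291 on P4 replicate 2. All 4 plates came from the Brn3a-tauLacZ mouse line, in which a tau-LacZ reporter is tied to Brn3a, an older name of Pou4f1. They belong to a developmental series of 15 plates from E11 to the adult, measured with CEL-seq2, a plate-based single-cell method in which each transcript carries a molecular identifier. A second set of 5 plates at E18 came from C57BL/6 mice (2 of left habenula, 2 of right and 1 of both sides) and held 727 Pou4f1-positive cells. For the last of these E18 was taken from its other labels, since its title reads E1. Not given in the sources used here are the genotype at the reporter locus, the sex of the mice, the number of mice behind a plate and the gate of any cell sort. The plate was the replicate throughout (n = 2 per stage). No label states that plates came from separate animals, but sex-linked transcripts, given below, differed between the plates of each stage. The p-values measure the spread between plates, which therefore includes differences between mice and may be technical in part.

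The habenula is a paired relay at the top of the diencephalon that carries forebrain signals to the midbrain. Its medial division projects to the interpeduncular nucleus, and its neurons release glutamate together with acetylcholine or tachykinin peptides and carry many nicotinic acetylcholine receptors. Pou4f1 is a POU-homeodomain transcription factor made by neurons of the habenula from soon after their last division, and it is needed for their normal gene expression and axon growth. The interval from E18 to P4 spans birth, when axons have reached their targets and synapses are being built.

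By neuron and radial glia markers the label held on 3 plates and less well on the fourth. The summed level of 10 neuron markers in the positive cells was 9444 CPM (counts scaled to a total of 1000000 per plate) on E18 replicate 2, and 8812 and 8692 CPM on the P4 plates, against 6658 CPM on E18 replicate 1. In the Pou4f1-negative wells of these plates the same sum was 1672 to 2858 CPM. The 15 radial glia and progenitor markers summed to 3209 CPM on E18 replicate 1, to 391 CPM on E18 replicate 2, and to 461 and 504 CPM at P4. The 15 ependymal and choroid plexus markers summed to 2023, 441, 111 and 95.8 CPM in the same order, the 12 astrocyte markers to 1009, 256, 57.02 and 56.7 CPM, and the 10 microglia markers to 118, 18.6, 46.5 and 20.7 CPM. The other marker lists gave, again in that order, 642, 551, 128 and 83.9 CPM for GABA neurons, 1691, 1444, 1598 and 1569 CPM for thalamic neurons, 283, 349, 170.3 and 95.6 CPM for vascular cells and fibroblasts, and 205, 98.03, 82.5 and 53.96 CPM for the oligodendrocyte lineage. Negative wells held more of the radial glia, astrocyte, microglia, vascular and oligodendrocyte sums on every plate. Positive cells, however, held more of the ependymal sum on E18 replicate 1 (2023 against 1654 CPM) and E18 replicate 2 (441 against 173 CPM). They also held more of the GABA sum on E18 replicate 2 (551 against 184 CPM) and of the thalamic sum on replicate 1 of each stage. Erythroid markers stayed at or under 14.7 CPM on these 4 plates but summed to 24.3 to 19804 CPM (median 2327) on the C57BL/6 plates, and their part in the comparisons with those plates was not tested. None of the 15 radial glia markers was at 0 on E18 replicate 1, and 2 of them were at 0 on E18 replicate 2. In 12 of the 75 cells of E18 replicate 1 the radial glia sum reached the neuron sum, against 1 of 94, 4 of 264 and 4 of 291 cells on the other plates. Only 28.1% of kept wells on E18 replicate 1 were Pou4f1-positive (exact 95% interval 22.8% to 33.9%, counting error only), against 85.5%, 92.0% and 90.4% on the others. E18 replicate 1 therefore stands apart. Where leaving out 1 E18 plate moved a printed log2 fold change by over 1.5 times in fold, the value without that plate is given beside it, except where the remaining plate held 0 counts.

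**Figure D1:**
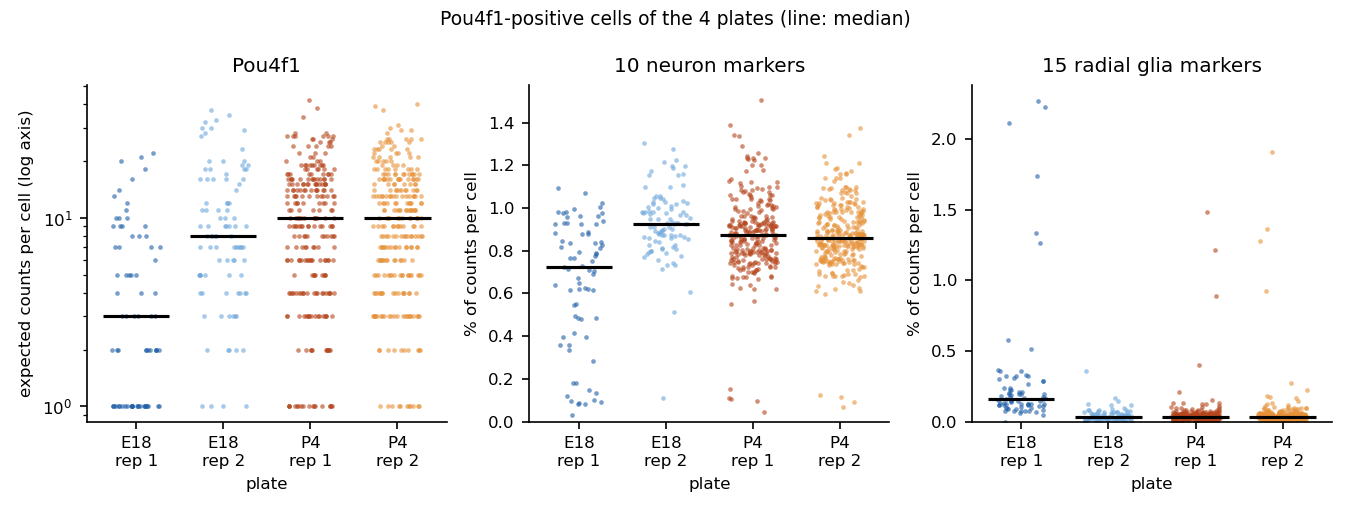
Each point is 1 Pou4f1-positive cell, by plate: Pou4f1 counts on a log axis, and the percent of the cell's counts in 10 neuron and in 15 radial glia markers (line: median). E18 replicate 1 has a median of 3.001 Pou4f1 counts against 8.01 to 10.01 on the other plates, and the highest median radial glia percent, 0.161%.

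Pou4f1 chose the cells, so its level is a description only. It was at 459 and 829 CPM in the positive cells of the E18 plates and at 513 and 518 CPM at P4, with the P4 plates between the E18 plates. Just inside the rule, 26, 4, 17 and 11 cells of the 4 plates held exactly 1 Pou4f1 count. Just outside it, 192, 16, 23 and 31 kept wells held 0. P4 cells were also deeper, with median counts of 20392 and 20624 per positive cell against 10756 and 8631 at E18. After thinning each well to 2000 counts, the positive share was 14.9% and 72.0% at E18 and 59.7% and 58.7% at P4, out of 261, 107, 278 and 315 wells deep enough.

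Summed counts in positive cells were 816355 and 1234793 at E18 and 5705213 and 6320695 at P4. Across genes, which are not independent replicates, log2 CPM correlated at r = 0.980 between the P4 plates and 0.853 between the E18 plates. Several plate facts move with stage or with single plates. The plate numbers in the deposited column names are 10 and 14 for E18 and 20 and 21 for P4. Whether plate number marks preparation or sequencing is not given, so plate number and stage cannot be told apart. Xist was at 520 to 589 CPM on 3 plates and at 2.69 CPM on P4 replicate 2. The Y-linked Ddx3y was at 18.4 and 2.43 CPM on the E18 plates and at 0.175 and 77.2 CPM on the P4 plates, and the Y-linked Uty at 35.5 and 0.810 CPM at E18 and 0 and 78.3 CPM at P4. At both stages the plates thus differed from each other in Y-linked transcripts. At P4, replicate 1 held Xist with almost no Y-linked transcripts, and replicate 2 held the reverse, so these plates came from mice of different sex. At E18, replicate 1 held both and replicate 2 almost only Xist, so these plates did not hold the same mice either. The spread between plates of a stage therefore includes mice and sex. The median spike-in count per positive cell was 4007 and 3044 at E18 and 812 and 921 at P4.

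The 2 E18 plates of the series were also compared with other plates near them in age. The neuronal gene Nrgn, for example, was at 3.67 and 18.6 CPM on the E18 plates, at 19.3 and 202 CPM at E15, and at 337 to 433 CPM on the 5 C57BL/6 E18 plates. Of the 826 genes called higher at P4 (below), E15 replicate 2 lay above both E18 plates for 51.0%, against 26.6% of all genes tested. E15 replicate 1 lay above both for 30.1%, against 29.5%, and below both for 42.5%, against 33.7%, so the E15 plates did not agree. The 5 C57BL/6 plates all lay above both E18 plates for 80.6%, against 16.4%. Of the 1112 genes called lower, E15 replicate 2 lay below both E18 plates for 67.6%, against 34.9%, E15 replicate 1 for 44.8%, against 33.7%, and all 5 C57BL/6 plates for 59.5%, against 14.1%. The called genes were chosen on these E18 plates, so a shift of other plates towards P4 follows in part from that choice. Whether the 2 plates match their E18 label was not tested, so E18 below means plates labelled E18. For this reason C57BL/6 values are set beside many of the results. Of the 84 called genes given with values, the fold change of 68 was over 1.5 times smaller against the C57BL/6 plates, and that of 0 was over 1.5 times larger. The strain, the set and the dissection differ from the series together and cannot be told apart.

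A broad exchange of transcripts separated the stages. Of 13701 genes tested with edgeR's quasi-likelihood test, 1938 (14.1%) passed a Benjamini-Hochberg adjusted p of 0.05, of which 826 (6.03% of genes tested) were higher at P4 and 1112 (8.12%) were lower. In all 1938 the plates of the stages did not overlap. Over all genes tested, both P4 plates lay above both E18 plates for 29.9% and below them for 34.2%, and the median log2 fold change was 0.00966. The count of calls depends on which plates are present. Without E18 replicate 1 it was 3597 and without E18 replicate 2 it was 4916. Without P4 replicate 1 it was 161, and without P4 replicate 2 it was 0 (1561 genes at an unadjusted p under 0.05). In fits without an E18 plate the remaining one is assumed to vary as the P4 plates do, which vary least, so a call kept there says little of its stability. In fits without a P4 plate the remaining one is assumed to vary as the E18 plates do, which vary most. With all kept wells in place of the positive ones the count was 528 (3.58%). With the C57BL/6 plates in place of the E18 plates of the series it was 3093 (19.5%). Of the 105 genes given below with values, 84 were called. Of these 84, 30 kept their call without P4 replicate 1, 0 without P4 replicate 2, 38 over all kept wells and 73 against the C57BL/6 plates.

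The largest rises included genes of mature neurons. Nrgn (neurogranin), a postsynaptic protein that binds calmodulin, was at 3.67 and 18.6 CPM at E18 and 1628 and 1694 CPM at P4 (log2 fold change 7.18 ± 0.70 (SE), edgeR adjusted p = 0.00775). The lower P4 plate was 87.4 times as high as the higher E18 plate, and the C57BL/6 E18 plates lay between at 337 to 433 CPM. The log2 fold change of Nrgn was 6.49 without E18 replicate 1 and 8.996 without E18 replicate 2. Slc17a7, the vesicular glutamate transporter VGLUT1, was at 0 and 0.810 CPM at E18 and 187 and 181 CPM at P4. With 1 count in all E18 cells, its pooled ratio was 377 (95% counting interval 67.5 to 14882), and the C57BL/6 plates held 11.7 to 19.95 CPM. Slc17a6, the vesicular glutamate transporter VGLUT2 of the same list, was not called. Thy1, a surface glycoprotein of projection neurons, was at 1.22 and 0 CPM at E18 and 149 and 154 CPM at P4, a pooled ratio of 311 (55.8 to 12294) on 1 count at E18. Npr1, the receptor guanylyl cyclase for natriuretic peptides, had no count on either E18 plate and was at 51.4 and 57.8 CPM at P4, at least 37.4-fold above a floor of 3 counts over both E18 plates. On the C57BL/6 plates Npr1 was at 2.07 to 35.2 CPM.

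The other large rises were also low or absent at E18. Cplx1, a complexin that clamps and triggers vesicle fusion, was at 0 and 4.86 CPM at E18 and 222 and 240.1 CPM at P4 (log2 fold change 6.38 ± 0.61 (SE), edgeR adjusted p = 0.00758). Rimbp2, a scaffold that ties calcium channels to release sites, was at 4.90 and 0.810 CPM at E18 and 116 and 119 CPM at P4 (log2 fold change 5.63 ± 0.45 (SE), edgeR adjusted p = 0.00583). Plch2, a phospholipase C, was at 9.80 and 3.24 CPM at E18 and 381 and 337 CPM at P4 (log2 fold change 5.97 ± 0.42 (SE), edgeR adjusted p = 0.00569). Caly (calcyon), a vesicle trafficking protein of neurons, was at 0 and 12.2 CPM at E18 and 285 and 238 CPM at P4 (log2 fold change 5.28 ± 0.77 (SE), edgeR adjusted p = 0.0166). Clec18a, a C-type lectin, went from 1.22 and 0.810 CPM to 70.3 and 83.6 CPM on 2 counts at E18, and AF529169 from 2.45 and 3.24 CPM to 121 and 126 CPM. For all 12 genes of largest rise, both P4 plates lay above both E18 plates, as the choice of these genes required. The C57BL/6 plates lay between the stages for each of these 12, with all 5 above both E18 plates. They did so for 59.3% of all genes called higher and 5.52% of all genes tested. Choosing the largest rises favours low values on the E18 plates, so this follows in part from the choice. Against the C57BL/6 plates the log2 fold change was 1.89 for Cplx1, 1.01 for Rimbp2, 2.11 for Plch2 and 1.53 for Caly. Against the E18 plates of the series, that of Rimbp2 was 7.15 without E18 replicate 1 and 4.77 without E18 replicate 2, and that of Plch2 6.79 and 5.38. Without E18 replicate 1 it was 5.58 for Cplx1 and 4.44 for Caly, and no value is given without E18 replicate 2, since the remaining plate held 0 counts of either. Caly missed the threshold with DESeq2 (adjusted p = 0.0575) and over all kept wells (edgeR adjusted p = 0.0859).

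**Figure D2:**
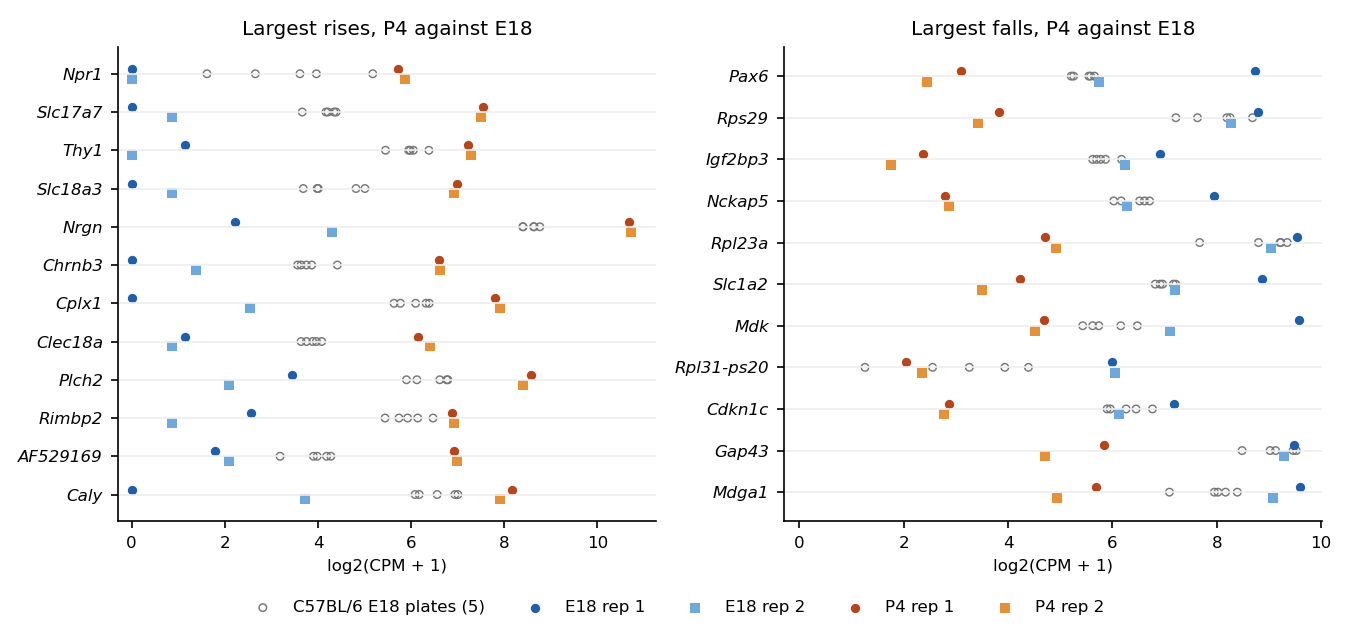
Levels in Pou4f1-positive cells, as log2(CPM + 1), of the 12 largest rises and 11 of the 12 largest falls, for the 2 E18 plates, the 2 P4 plates and, as open circles, the 5 C57BL/6 E18 plates. In the left panel the open circles lie between the stages; in the right panel they spread from near the P4 plates (Rpl31-ps20) to the E18 plates (Gap43).

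Most acetylcholine genes rose. Of 15 tested members of a list of acetylcholine synthesis, transport and receptor genes, 9 were higher and 0 lower, with a median log2 fold change of 2.94, against 6.03% higher, 8.12% lower and a median of 0.00966 over all genes tested. Members near 0 at E18, such as Slc18a3, passed the filter on low counts through the P4 plates only. They could be called higher but not lower, so the split of directions follows in part from the filter. The same limit applies to the lists below. Chat, which makes acetylcholine, was at 1.22 and 3.24 CPM at E18 and 68.2 and 86.3 CPM at P4 (log2 fold change 5.05 ± 0.43 (SE), edgeR adjusted p = 0.00615). Slc18a3, the transporter that loads it into vesicles, was at 0 and 0.810 CPM at E18 and 125 and 120.2 CPM at P4, with a pooled ratio of 251 (95% counting interval 45.1 to 9937) on 1 count at E18. Slc5a7, the choline transporter that feeds the synthesis, was at 2.45 and 12.1 CPM at E18 and 235 and 310.3 CPM at P4 (log2 fold change 5.15 ± 0.56 (SE), edgeR adjusted p = 0.00969). Ache, which degrades acetylcholine, was at 3.68 and 19.4 CPM at E18 and 92.9 and 73.3 CPM at P4 (log2 fold change 2.77 ± 0.54 (SE), edgeR adjusted p = 0.0314). For all 4 genes both P4 plates lay above both E18 plates, and no called gene had overlapping stages. The C57BL/6 plates held 4.99 to 12.3 CPM of Chat, 11.8 to 31.2 CPM of Slc18a3 and 46.2 to 52.1 CPM of Slc5a7, between the stages, and 31.8 to 67.6 CPM of Ache. The log2 fold change of Slc5a7 was 4.51 without E18 replicate 1 and 6.97 without E18 replicate 2, that of Ache 2.11 and 4.67 and that of Chat 4.58 and 6.13.

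Some nicotinic receptor subunits were called higher, and others were not called. Chrna3, an alpha subunit of medial habenula receptors, was at 51.5 and 68.1 CPM at E18 and 422 and 452 CPM at P4 (log2 fold change 2.94 ± 0.28 (SE), edgeR adjusted p = 0.00758). Chrnb4, its partner in the receptors of medial habenula neurons, was at 13.5 and 5.67 CPM at E18 and 74.5 and 84.99 CPM at P4 (log2 fold change 3.23 ± 0.36 (SE), edgeR adjusted p = 0.00984). Its change was 3.83 without E18 replicate 1 and 2.75 without E18 replicate 2. Chrna5, an accessory subunit, had no count at E18 and was at 9.47 and 10.8 CPM at P4, at least 6.94-fold above the floor. Chrnb3 was at 0 and 1.62 CPM at E18 and 95.6 and 97.7 CPM at P4, a pooled ratio of 99.2 (95% counting interval 27.4 to 819.9) on 2 counts at E18. Chrna6 was at 0 and 2.43 CPM at E18 and 21.7 and 26.7 CPM at P4, a pooled ratio of 16.7 (5.64 to 81.2) on 3 counts. By contrast with these 5 called subunits, Chrnb2 was at 37.98 and 51.8 CPM at E18 and 47.5 and 39.2 CPM at P4 (edgeR adjusted p = 0.994) and Chrna7 at 15.9 and 8.91 CPM at E18 and 17.7 and 14.6 CPM at P4 (edgeR adjusted p = 0.396), both with overlapping stages. Chrna4 was at 8.57 and 2.43 CPM at E18 and 20.7 and 18.5 CPM at P4, did not overlap between stages and missed the threshold (edgeR adjusted p = 0.0572). The receptor chaperone Ric3 (24.5 and 21.1 CPM at E18 and 35.8 and 32.1 CPM at P4) and the lynx-type modulators Lynx1 (14.7 and 1.62 CPM at E18 and 5.43 and 6.80 CPM at P4) and Ly6h (69.8 and 168 CPM at E18 and 95.4 and 76.6 CPM at P4) were not called either, and Chrna2 had no count on any of the 4 plates. Whether the called and uncalled subunits differ from each other in their change was not tested.

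**Figure D3:**
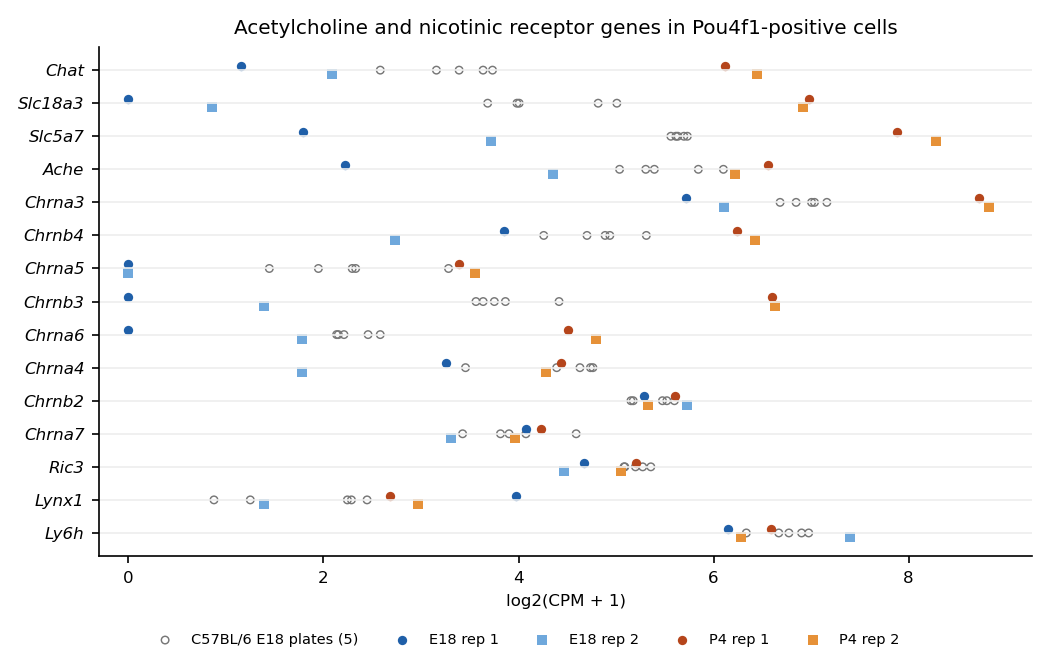
Levels, as log2(CPM + 1), of the 15 tested members of the acetylcholine list on the E18 and P4 plates, with the 5 C57BL/6 E18 plates as open circles. From Chat down to Chrna4, both P4 plates lie right of both E18 plates; from Chrnb2 down the stages overlap, except for Ric3.

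Chat and Slc18a3 occupy 1 locus on the minus strand of chromosome 14: Slc18a3 (14:32462438-32464850) lies within the span of Chat (14:32408203-32465989, GRCm38, GENCODE M21), so counts at the shared part cannot be assigned with certainty. Their promoter windows, 250 bases before to 50 after each RefSeq start (GRCm38.p6), are printed 5′ to 3′ because the pair rose together, with matches to the E-box CAGNTG, read on both strands, in capitals. The window of Chat (chr14:32465860-32466159) holds 1 match and that of Slc18a3 (chr14:32464801-32465100) holds 0.
Chat: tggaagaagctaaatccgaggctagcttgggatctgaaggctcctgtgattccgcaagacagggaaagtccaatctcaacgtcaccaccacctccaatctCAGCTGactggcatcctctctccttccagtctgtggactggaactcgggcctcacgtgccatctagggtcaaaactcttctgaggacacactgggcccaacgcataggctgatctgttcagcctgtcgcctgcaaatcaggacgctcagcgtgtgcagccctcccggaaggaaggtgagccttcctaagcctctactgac
Slc18a3: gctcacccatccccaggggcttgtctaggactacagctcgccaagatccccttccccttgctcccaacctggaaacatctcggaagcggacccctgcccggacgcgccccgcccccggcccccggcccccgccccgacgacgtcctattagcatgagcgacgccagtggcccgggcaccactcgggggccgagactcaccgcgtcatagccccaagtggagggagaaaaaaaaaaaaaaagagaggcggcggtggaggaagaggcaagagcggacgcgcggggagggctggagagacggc
Among genes with a promoter window, CAGNTG was found in 55.0% of 611 called higher, 48.1% of 591 called lower, 48.3% of 9718 tested and 54.6% of all 27025. ATAATTAAT, the letters of a POU4-type site, was found in 0.164% of the higher, 0.169% of the lower and 0.165% of the tested genes. These are 2 of 19 motifs searched, and a match is a description of letters, not a site.

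Peptide genes rose in part. Of 23 tested neuropeptide and prohormone genes, 8 were higher (Scg2, Nxph4, Nppa, Pcsk1, Cartpt, Tac2, Vgf and Nxph1) and 0 lower, against 6.03% and 8.12% of all genes tested, with a median log2 fold change of 1.23. Cartpt, which encodes the CART peptide, was at 2.45 and 25.9 CPM at E18 and 232 and 232 CPM at P4 (log2 fold change 3.95 ± 0.70 (SE), edgeR adjusted p = 0.0254). Tac2, which encodes neurokinin B, was at 0 and 13.8 CPM at E18 and 237 and 119.6 CPM at P4 (log2 fold change 4.53 ± 0.83 (SE), edgeR adjusted p = 0.0270), with no count on E18 replicate 1. Nxph1, a secreted ligand of neurexins, was at 11.03 and 69.7 CPM at E18 and 329 and 365 CPM at P4 (log2 fold change 3.09 ± 0.74 (SE), edgeR adjusted p = 0.0485). Tac1, the substance P precursor of medial habenula neurons, overlapped between stages at 4.90 and 96.4 CPM at E18 and 53.7 and 25.02 CPM at P4 (edgeR adjusted p = 0.800). Cpe, the carboxypeptidase that trims prohormones, was at 376 and 327 CPM at E18 and 552 and 541 CPM at P4 and missed the threshold (edgeR adjusted p = 0.0854). On the C57BL/6 plates Cartpt was at 30.4 to 90.9 CPM, Tac2 at 31.7 to 61.2 CPM and Tac1 at 66.6 to 140.4 CPM. The log2 fold change of Cartpt was 3.18 without E18 replicate 1 and 6.73 without E18 replicate 2, and that of Nxph1 2.34 and 5.16. That of Tac2 was 3.70 without E18 replicate 1, and Tac2 missed the threshold with DESeq2 (adjusted p = 0.146).

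Some receptors that couple to G proteins rose, and none of those tested fell. Of 21 tested members of a list of habenula receptors and G protein genes, 7 were higher (Rgs4, Gpr151, Sstr2, Tacr1, Htr5b, Gabbr2 and Htr4) and 0 lower, against 6.03% and 8.12% of all genes tested, and the median log2 fold change was 1.91. Gpr151, an orphan receptor that marks habenula axons, was at 1.22 and 6.48 CPM at E18 and 166 and 136 CPM at P4 (log2 fold change 5.19 ± 0.46 (SE), edgeR adjusted p = 0.00667). Gabbr2, a subunit of the GABA-B receptor, was at 40.4 and 163 CPM at E18 and 1409.9 and 1675 CPM at P4 (log2 fold change 3.95 ± 0.71 (SE), edgeR adjusted p = 0.0266), and it was already 432 to 530.3 CPM on the C57BL/6 plates. The change of Gpr151 was 4.55 without E18 replicate 1 and 7.09 without E18 replicate 2, and that of Gabbr2 3.26 and 5.44. Sstr2, a somatostatin receptor, was at 7.35 and 4.86 CPM at E18 and 52.4 and 58.7 CPM at P4 (log2 fold change 3.30 ± 0.31 (SE), edgeR adjusted p = 0.00751). Gnas, which encodes the stimulatory alpha subunit, was the uncalled member of highest CPM, at 1754 and 1509 CPM at E18 and 2191 and 2202 CPM at P4 (edgeR adjusted p = 0.244).

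The machinery of transmitter release rose in part. Of 41 tested synaptic vesicle release genes, 13 were higher and 0 lower, with a median log2 fold change of 1.42, and both P4 plates lay above both E18 plates for 31 of the 41. Over all genes tested 6.03% were called higher and 29.9% had both P4 plates above. Besides Slc17a7 and Cplx1, the called genes included Napb, Snap25, Syp, Bsn, Rph3a, Syn1, Vamp1, Nsf, Stxbp5l and Rab3a. Snap25, a SNARE protein of the plasma membrane, was at 121 and 182 CPM at E18 and 541 and 568 CPM at P4 (log2 fold change 1.94 ± 0.31 (SE), edgeR adjusted p = 0.0208). Rab3a, a GTPase of synaptic vesicles, was at 68.6 and 139 CPM at E18 and 355 and 322 CPM at P4 (log2 fold change 1.75 ± 0.40 (SE), edgeR adjusted p = 0.0441, and a change of 2.49 without E18 replicate 2). Stxbp5l, a syntaxin-binding inhibitor of fusion, was at 197 and 242 CPM at E18 and 447 and 651 CPM at P4 (log2 fold change 1.40 ± 0.32 (SE), edgeR adjusted p = 0.0439). Syt1, the calcium sensor of fast release, did not overlap between stages but was not called, at 631 and 850.3 CPM at E18 and 908 and 992 CPM at P4 (edgeR adjusted p = 0.364).

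Some calcium and calmodulin genes rose beside Nrgn. Of 29 tested, 8 were higher (Nrgn, Camk4, Hpcal4, Camk2d, Camkv, Pcp4, Camk2n2 and Calb1) and 1, Gap43, was lower, against 6.03% and 8.12% of all genes tested, with a median log2 fold change of 0.94. Pcp4, a small calmodulin-binding protein, was at 20.8 and 98.1 CPM at E18 and 1042 and 923 CPM at P4 (log2 fold change 4.06 ± 0.73 (SE), edgeR adjusted p = 0.0265). The change of Pcp4 was 3.34 without E18 replicate 1 and 5.74 without E18 replicate 2. At E15 its level was 16.2 and 513 CPM, below and above both E18 plates, and on the C57BL/6 plates it was 556 to 652 CPM, above both. Camk2d, a calmodulin-dependent kinase, was at 95.6 and 90.7 CPM at E18 and 208 and 207 CPM at P4 (log2 fold change 1.24 ± 0.19 (SE), edgeR adjusted p = 0.0194).

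Ion channel genes gave 6 rises and 2 falls of 41 tested, against 6.03% and 8.12% of all genes tested, with a median log2 fold change of 0.79. Ano3, an anoctamin, was at 14.7 and 24.3 CPM at E18 and 116 and 152 CPM at P4 (log2 fold change 2.81 ± 0.33 (SE), edgeR adjusted p = 0.0108). Kcna2, a delayed-rectifier potassium channel subunit, was at 57.6 and 46.98 CPM at E18 and 96.8 and 126 CPM at P4 (log2 fold change 1.19 ± 0.23 (SE), edgeR adjusted p = 0.0314). Cacng5, a transmembrane subunit that binds AMPA receptors, was at 2.45 and 3.24 CPM at E18 and 46.5 and 40.04 CPM at P4 (log2 fold change 3.94 ± 0.36 (SE), edgeR adjusted p = 0.00699). The 2 that fell were Cacna1a, the pore of P/Q-type calcium channels, at 52.7 and 31.6 CPM at E18 and 8.76 and 7.75 CPM at P4 (log2 fold change -2.23 ± 0.32 (SE), edgeR adjusted p = 0.0155), and Cacng2 (stargazin), at 25.7 and 8.91 CPM at E18 and 2.10 and 1.42 CPM at P4 (log2 fold change -3.13 ± 0.63 (SE), edgeR adjusted p = 0.0336, and a change of -2.31 without E18 replicate 1). The large-conductance potassium channel Kcnma1 was at 614 and 2841 CPM at E18 and 6497 and 8652 CPM at P4 and not called (edgeR adjusted p = 0.118), although its stages did not overlap.

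Receptors for amino acid transmitters showed 6 higher (Grin3a, Gabra2, Grik3, Glrb, Gabra5 and Grin2a) and 0 lower of 28 tested, against 6.03% and 8.12% of all genes tested, with a median log2 fold change of 0.59. Grin3a, an NMDA receptor subunit, was at 18.4 and 11.3 CPM at E18 and 227 and 263 CPM at P4 (log2 fold change 4.17 ± 0.29 (SE), edgeR adjusted p = 0.00569). The C57BL/6 plates, however, held 165 to 361 CPM of Grin3a, around the P4 level, and against them the log2 fold change was 0.11 (edgeR adjusted p = 0.794). Gabra2, a GABA-A receptor subunit, was at 13.5 and 24.3 CPM at E18 and 182 and 175 CPM at P4 (log2 fold change 3.26 ± 0.32 (SE), edgeR adjusted p = 0.00775, and a change of 3.91 without E18 replicate 2), and Glrb, the beta subunit of glycine receptors, at 23.3 and 27.5 CPM at E18 and 98.2 and 93.5 CPM at P4 (log2 fold change 1.98 ± 0.22 (SE), edgeR adjusted p = 0.00977). Gria1, an AMPA receptor subunit, was at 355 and 1279 CPM at E18 and 1016 and 1072 CPM at P4 with no separation of the stages (edgeR adjusted p = 0.693).

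**Figure D4:**
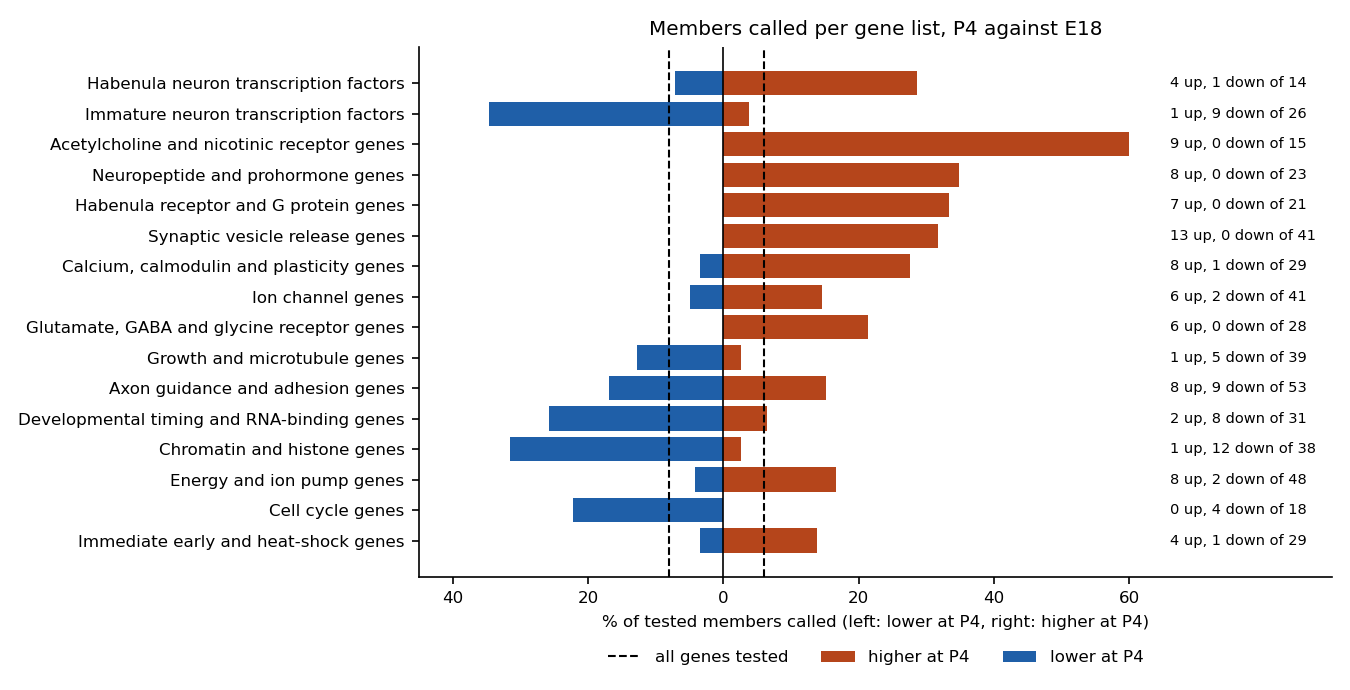
Percent of the tested members of 16 gene lists that were called higher (right) or lower (left) at P4, with the counts at the right margin and dashed lines at the percent over all genes tested (6.03% higher, 8.12% lower). The acetylcholine list reaches furthest right, with 9 of 15, and the immature transcription factors furthest left, with 9 of 26.

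Habenula transcription factors included rises and a fall. Of 14 tested factors of habenula neurons, Etv1, Nr4a2, Lmo3 and Irx6 were higher and Lmo4 was lower, against 6.03% and 8.12% of all genes tested. The median log2 fold change was -0.26. The 14 include Pou4f1, which chose the cells, so its lack of a call there is no result. The ETS factor Etv1 was at 41.7 and 74.6 CPM at E18 and 1168 and 1506 CPM at P4 (log2 fold change 4.58 ± 0.44 (SE), edgeR adjusted p = 0.00758), and its level at E15 was 199 and 814 CPM. The change of Etv1 was 5.19 without E18 replicate 2, and against the C57BL/6 plates, at 314 to 641 CPM, it was 1.51 (edgeR adjusted p = 0.000828). The orphan nuclear receptor Nr4a2 was at 35.5 and 133 CPM at E18 and 876 and 1068 CPM at P4 (log2 fold change 3.56 ± 0.66 (SE), edgeR adjusted p = 0.0282), with 272 to 471 CPM on the C57BL/6 plates. The change of Nr4a2 was 2.89 without E18 replicate 1 and 4.96 without E18 replicate 2. The LIM-only cofactors went opposite ways: Lmo3 was at 154 and 196 CPM at E18 and 435 and 523 CPM at P4 (log2 fold change 1.52 ± 0.28 (SE), edgeR adjusted p = 0.0270) and Lmo4 at 205 and 199 CPM at E18 and 87.2 and 69.5 CPM at P4 (log2 fold change -1.29 ± 0.20 (SE), edgeR adjusted p = 0.0199). Against the C57BL/6 plates the change of Lmo4 was -0.32 (edgeR adjusted p = 0.262). Zic1, a zinc finger factor of the dorsal midline, was at 1559.8 and 2151 CPM at E18 and 2314 and 2364 CPM at P4, without a call (edgeR adjusted p = 0.435).

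Some factors of immature neurons fell. Of 26 tested, 9 were lower (Sox11, Insm1, Onecut2, Nfix, Nfib, Sox4, Nfia, St18 and Onecut1) and 1, Neurod1, was higher, with a median log2 fold change of -0.75. Over all genes tested 8.12% were lower, 6.03% were higher and the median was 0.00966. Sox11, a SOX factor that drives neuronal differentiation genes, was at 1793 and 1244 CPM at E18 and 165 and 167 CPM at P4 (log2 fold change -3.10 ± 0.29 (SE), edgeR adjusted p = 0.00742), with 589.6 to 659 CPM on the C57BL/6 plates. Its relative Sox4 was at 1908 and 1652 CPM at E18 and 645 and 618 CPM at P4 (log2 fold change -1.41 ± 0.26 (SE), edgeR adjusted p = 0.0269), but against the C57BL/6 plates, at 763 to 879.6 CPM, its change was -0.29 (edgeR adjusted p = 0.133). Nfib, a nuclear factor I gene, was at 3319 and 1528 CPM at E18 and 405 and 467 CPM at P4 (log2 fold change -2.36 ± 0.42 (SE), edgeR adjusted p = 0.0250). The helix-loop-helix factor Neurod1 ran the other way, at 119 and 167 CPM at E18 and 505 and 701 CPM at P4 (log2 fold change 2.15 ± 0.34 (SE), edgeR adjusted p = 0.0197). Ebf1 was at 1038 and 875 CPM at E18 and 444 and 509 CPM at P4 and missed the threshold (edgeR adjusted p = 0.0661).

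The promoter window of Sox11 (chr12:27342669-27342968, minus strand, GRCm38.p6, RefSeq) is printed beside that of Nrgn (chr9:37552696-37552995, minus strand) as the windows of a strong fall and a strong rise. Capitals again mark matches to CAGNTG on either strand, 1 in each window, so its presence does not tell these 2 genes apart.
Sox11: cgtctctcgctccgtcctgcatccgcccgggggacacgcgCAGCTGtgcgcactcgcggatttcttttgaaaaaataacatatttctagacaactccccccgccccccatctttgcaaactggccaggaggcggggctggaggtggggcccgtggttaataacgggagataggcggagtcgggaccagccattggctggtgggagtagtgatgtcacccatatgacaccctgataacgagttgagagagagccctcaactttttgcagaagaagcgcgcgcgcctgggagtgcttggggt
Nrgn: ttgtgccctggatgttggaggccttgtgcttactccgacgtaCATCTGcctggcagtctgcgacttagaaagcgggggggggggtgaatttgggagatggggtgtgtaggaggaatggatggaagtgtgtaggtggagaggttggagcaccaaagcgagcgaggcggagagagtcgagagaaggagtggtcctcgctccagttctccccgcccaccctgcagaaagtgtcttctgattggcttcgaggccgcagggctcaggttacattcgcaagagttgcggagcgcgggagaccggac
The SOX-type letters ACAAAG, also picked from the 19 motifs searched, were found in neither of these windows. They were found in 22.5% of the windows of genes called lower, 13.7% of those called higher, 16.2% of those tested and 21.0% of all 27025. Other motifs departed from the tested share as well, such as CCGGAAGT, in 6.26% of the lower and 4.42% of the higher against 9.22%. A link of these letters to Sox11 was not tested.

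Some timing and RNA-binding genes were among the falls. Of 31 tested timing and RNA-binding genes, 8 were lower (Igf2bp1, Igf2bp2, Igf2bp3, Msi1, Elavl2, Rbfox1, Nova1 and Ptbp1) and 2 were higher (Mirg and Hmga1), against 8.12% and 6.03% of all genes tested. The median log2 fold change of this list was 0.23, so the list as a whole did not fall. Among its timing genes Lin28b was not called, and Lin28a, Hmga2 and Trim71 were too low to test. Igf2bp3, an RNA-binding protein of embryonic tissue, was at 120.1 and 74.5 CPM at E18 and 4.21 and 2.37 CPM at P4 (log2 fold change -4.78 ± 0.37 (SE), edgeR adjusted p = 0.00569). At E15 its level was 189 and 137 CPM, against 48.3 to 71.3 CPM on the C57BL/6 plates and 2.16 and 1.10 CPM at P7. Elavl2, an RNA-binding protein of neurons, was at 551 and 333 CPM at E18 and 105 and 89.3 CPM at P4 (log2 fold change -2.09 ± 0.29 (SE), edgeR adjusted p = 0.0151), and Nova1, a splicing regulator, at 295 and 166 CPM at E18 and 96.6 and 63.3 CPM at P4 (log2 fold change -1.43 ± 0.33 (SE), edgeR adjusted p = 0.0455). Msi1, the Musashi protein of neural progenitors, was at 365 and 336 CPM at E18 and 122 and 103 CPM at P4 (log2 fold change -1.56 ± 0.21 (SE), edgeR adjusted p = 0.0149), and against the C57BL/6 plates its change was -0.44 (edgeR adjusted p = 0.119). The imprinted long noncoding transcript Meg3 was at 637 and 1639 CPM at E18 and 4591 and 5162 CPM at P4 and missed the threshold (edgeR adjusted p = 0.0572). Mirg, from the same imprinted region, was at 34.3 and 22.7 CPM at E18 and 76.3 and 93.9 CPM at P4 (log2 fold change 1.69 ± 0.26 (SE), edgeR adjusted p = 0.0185). The chromatin protein gene Hmga1 was at 14.7 and 12.96 CPM at E18 and 31.2 and 27.4 CPM at P4 (log2 fold change 1.17 ± 0.27 (SE), edgeR adjusted p = 0.0461), against 0.12 (edgeR adjusted p = 0.779) with the C57BL/6 plates. It missed the threshold with DESeq2 (adjusted p = 0.127), over all kept wells (edgeR adjusted p = 0.0732) and in other alternatives.

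Gap43 and 5 growth and microtubule genes were also among the falls. Gap43, a growth cone protein, was at 714 and 622 CPM at E18 and 56.5 and 25.2 CPM at P4 (log2 fold change -3.95 ± 0.44 (SE), edgeR adjusted p = 0.00984), with a change of -4.63 without P4 replicate 1, 357 to 734 CPM on the C57BL/6 plates and 28.9 and 47.7 CPM at P7. Of 39 tested growth and microtubule genes, 5 were lower (Tmsb10, Stmn1, Tubb2b, Tubb3 and Tubb5) and 1, Tuba4a, was higher, against 8.12% and 6.03% of all genes tested. The median log2 fold change of this list, which does not hold Gap43, was 0.19. Both P4 plates lay above both E18 plates for 13 of the 39 and below them for 16, against 29.9% and 34.2% of all genes tested. The beta tubulin Tubb2b was at 1149 and 1199 CPM at E18 and 468 and 345 CPM at P4 (log2 fold change -1.45 ± 0.28 (SE), edgeR adjusted p = 0.0290). Tubb3 was at 1389 and 1098 CPM at E18 and 565 and 425 CPM at P4 (log2 fold change -1.24 ± 0.27 (SE), edgeR adjusted p = 0.0414) and Tubb5 at 1915 and 1591 CPM at E18 and 789.7 and 615 CPM at P4 (log2 fold change -1.23 ± 0.27 (SE), edgeR adjusted p = 0.0424), but against the C57BL/6 plates their changes were -0.36 (edgeR adjusted p = 0.117) and -0.47 (edgeR adjusted p = 0.0786). The alpha tubulin Tuba1a was at 7757 and 8077 CPM at E18 and 3194 and 2803 CPM at P4 and missed the threshold (edgeR adjusted p = 0.0529), while Tuba4a, another alpha tubulin, was at 2.45 and 4.05 CPM at E18 and 18.9 and 18.2 CPM at P4 (log2 fold change 2.51 ± 0.44 (SE), edgeR adjusted p = 0.0246).

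Guidance and adhesion genes moved in both directions: 8 of 53 tested were higher (Chl1, Tenm2, Epha5, Plxna4, Sema5a, Lrrtm1, Cntn1 and Tenm1) and 9 lower (Nrp1, Cdh2, Cdh11, Tenm3, Cntn2, Nrxn3, Efnb2, Dcc and Unc5a), against 6.03% and 8.12% of all genes tested, with a median log2 fold change of -0.06. Tenm2, a teneurin of synaptic membranes, was at 331 and 459.6 CPM at E18 and 4528 and 5978 CPM at P4 (log2 fold change 3.81 ± 0.41 (SE), edgeR adjusted p = 0.00944), with 1431 to 2445 CPM on the C57BL/6 plates. Chl1, an adhesion molecule of the L1 family, was at 26.96 and 36.5 CPM at E18 and 251 and 301 CPM at P4 (log2 fold change 3.18 ± 0.29 (SE), edgeR adjusted p = 0.00704), but 187 to 280.1 CPM on the C57BL/6 plates, against which its change was 0.28 (edgeR adjusted p = 0.299). The contactin Cntn1 was at 196 and 185 CPM at E18 and 376 and 482 CPM at P4 (log2 fold change 1.26 ± 0.25 (SE), edgeR adjusted p = 0.0326), while its relative Cntn2, found on growing axons, was at 768 and 408 CPM at E18 and 116 and 123 CPM at P4 (log2 fold change -2.19 ± 0.33 (SE), edgeR adjusted p = 0.0181). Dcc, the netrin receptor, was at 9134 and 3529 CPM at E18 and 1001 and 1169 CPM at P4 (log2 fold change -2.43 ± 0.50 (SE), edgeR adjusted p = 0.0353), with 2115 to 2916 CPM on the C57BL/6 plates, and its change was -1.68 without E18 replicate 1. Nrxn3, a neurexin, was at 1166 and 2615 CPM at E18 and 205 and 147 CPM at P4 (log2 fold change -3.38 ± 0.52 (SE), edgeR adjusted p = 0.0185, and a change of -2.55 without E18 replicate 2). Mdga1, a surface protein that binds neuroligins, was at 775 and 539 CPM at E18 and 50.7 and 29.6 CPM at P4 (log2 fold change -3.94 ± 0.36 (SE), edgeR adjusted p = 0.00710), and its change against the C57BL/6 plates was -2.56 (edgeR adjusted p = 0.000455). Cntnap2 overlapped between stages at 328 and 3328 CPM at E18 and 2870.1 and 2857 CPM at P4 (edgeR adjusted p = 0.674).

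E18 replicate 1, the plate of high radial glia markers, was the higher E18 plate for 10 of the 11 largest falls given with values, against 69.2% of all genes called lower and 55.4% of all genes tested. The gap between the E18 plates was widest for Pax6, of the radial glia list, Slc1a2, of the astrocyte list, and the genes Mdk and Nckap5. Calls among these markers were mixed: of 14 tested radial glia markers Pax6 was lower, Hopx was higher and 12 were not called, and of 8 tested astrocyte markers 4 were lower, Aqp4 was higher and 3 were not called, against 8.12% lower and 6.03% higher over all genes tested. The median log2 fold change was -1.88 for the radial glia list and -3.26 for the astrocyte list. Both P4 plates lay below both E18 plates for 6 of the 14 and 5 of the 8, and above them for 1 of each list. Over all genes tested these shares were 34.2% and 29.9%. Pax6, a homeodomain factor of progenitors, was at 427 and 52.7 CPM at E18 and 7.54 and 4.43 CPM at P4 (log2 fold change -5.17 ± 1.01 (SE), edgeR adjusted p = 0.0308). Slc1a2, the glial glutamate transporter GLT1, was at 463 and 147 CPM at E18 and 17.9 and 10.3 CPM at P4 (log2 fold change -4.32 ± 0.60 (SE), edgeR adjusted p = 0.0155). Mdk, the growth factor midkine, was at 766 and 137 CPM at E18 and 24.9 and 21.8 CPM at P4 (log2 fold change -4.14 ± 0.79 (SE), edgeR adjusted p = 0.0297), and Nckap5 was at 246 and 76.99 CPM at E18 and 5.96 and 6.33 CPM at P4 (log2 fold change -4.57 ± 0.56 (SE), edgeR adjusted p = 0.0118). Without E18 replicate 1 the log2 fold changes were -3.13 for Pax6, -3.37 for Slc1a2, -2.53 for Mdk and -3.62 for Nckap5, and without E18 replicate 2 they were -5.98 for Pax6 and -4.85 for Mdk. Against the C57BL/6 plates they were -2.75 for Pax6, -3.11 for Slc1a2, -1.28 for Mdk and -3.68 for Nckap5. The part that glial transcripts in these wells have in the falls was not tested beyond leaving out that plate and, separately, wells with as many radial glia as neuron marker counts. The latter fit, over all 4 plates, kept all 84 calls, but it took out only 12 of the 75 cells of E18 replicate 1. It cannot tell what part glial transcripts in the remaining cells have. The markers behind it include Pax6, Snap25 and Tubb3, which are themselves among the 84.

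Cell cycle genes gave 4 falls and 0 rises of 18 tested, against 8.12% and 6.03% of all genes tested, and 12 of 30 listed, Mki67 and Top2a among them, were too low to test. Cdkn1c, a cyclin-dependent kinase inhibitor that holds cells out of the cycle, was at 145 and 68.9 CPM at E18 and 6.31 and 5.85 CPM at P4 (log2 fold change -4.01 ± 0.38 (SE), edgeR adjusted p = 0.00756), Cdk4 at 481 and 246 CPM at E18 and 129.9 and 107 CPM at P4 (log2 fold change -1.51 ± 0.33 (SE), edgeR adjusted p = 0.0412) and Ccnd1 at 35.5 and 17.8 CPM at E18 and 6.14 and 6.01 CPM at P4 (edgeR adjusted p = 0.0346). The fourth was Rrm2. Cdkn1b, a related inhibitor, did not separate the stages at 157 and 94.8 CPM at E18 and 123 and 96.9 CPM at P4 (edgeR adjusted p = 0.838).

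Energy and ion pump genes gave 8 rises (among them Cycs, Pgk1, Eno2, Mdh1, Hk1, Atp1b2 and Got1) and 2 falls of 48 tested, with a median log2 fold change of 0.57, against 6.03% higher and 8.12% lower over all genes tested. Atp1b2, a beta subunit of sodium pumps, was at 115 and 70.5 CPM at E18 and 243 and 222 CPM at P4 (log2 fold change 1.43 ± 0.26 (SE), edgeR adjusted p = 0.0266) and the malate dehydrogenase Mdh1 at 209.5 and 231 CPM at E18 and 588 and 621 CPM at P4 (log2 fold change 1.54 ± 0.24 (SE), edgeR adjusted p = 0.0197). Slc25a4, the mitochondrial ADP/ATP carrier, was at 531 and 608 CPM at E18 and 770.2 and 768 CPM at P4, without a call (edgeR adjusted p = 0.220).

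Among 29 tested immediate early and heat-shock genes, 4 were higher and 1 lower, against 6.03% and 8.12% of all genes tested. Npas4, an activity-induced transcription factor, was at 19.6 and 17.01 CPM at E18 and 77.2 and 63.00 CPM at P4 (log2 fold change 2.02 ± 0.23 (SE), edgeR adjusted p = 0.0107), and Arc, an activity-induced synaptic protein, at 1.22 and 1.62 CPM at E18 and 15.1 and 19.8 CPM at P4 (pooled ratio 12.00, 4.05 to 58.6, on 3 counts at E18). The inducible chaperone Hspa1a was at 0 and 1.62 CPM at E18 and 18.1 and 13.8 CPM at P4 (pooled ratio 16.2, 4.42 to 135, on 2 counts at E18). It shares nearly all of its sequence with Hspa1b, also called, so reads cannot be divided between them with certainty. The constitutive chaperone Hspa8 fell, at 551 and 701 CPM at E18 and 152 and 172 CPM at P4 (log2 fold change -1.87 ± 0.28 (SE), edgeR adjusted p = 0.0173), and Hsp90ab1 did not separate the stages at 1457 and 1327 CPM at E18 and 1356 and 1185 CPM at P4 (edgeR adjusted p = 0.916).

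Chromatin genes were lower in 12 of 38 tested and higher in 1, Dnmt3a, against 8.12% and 6.03% of all genes tested, with a median log2 fold change of -0.71. The histone H3.3 gene H3f3a was at 533 and 301 CPM at E18 and 97.7 and 94.95 CPM at P4 (log2 fold change -2.01 ± 0.30 (SE), edgeR adjusted p = 0.0173), the histone chaperone gene Set at 278 and 278 CPM at E18 and 80.8 and 72.5 CPM at P4 (log2 fold change -1.78 ± 0.20 (SE), edgeR adjusted p = 0.0103) and the remodeller subunit Smarcc1 at 217 and 241 CPM at E18 and 107 and 108 CPM at P4 (log2 fold change -1.02 ± 0.21 (SE), edgeR adjusted p = 0.0353). Against the C57BL/6 plates the change of H3f3a was -0.34 (edgeR adjusted p = 0.468) and that of Smarcc1 -0.32 (edgeR adjusted p = 0.119). Dnmt3a, a DNA methyltransferase, was at 243 and 308 CPM at E18 and 567 and 570.4 CPM at P4 (log2 fold change 1.12 ± 0.27 (SE), edgeR adjusted p = 0.0483). H3f3b, a second gene for histone H3.3, was at 865 and 928 CPM at E18 and 944 and 988 CPM at P4, without a call (edgeR adjusted p = 0.650).

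The chromatin genes that fell were also low on the E12 plate, whose plate number is near those of P4. E12 is the only plate of its stage, so its plate number and its stage cannot be told apart. An effect of plate number was not tested. The single E12 plate carries number 22, next to the P4 plates, and for all 12 chromatin genes called lower its level lay below all 4 plates of E11 and E13. For Set it was at 138 CPM, against 310.0 to 344 CPM at E11 and E13. Over all 1112 genes called lower the E12 plate lay below those 4 plates for 57.4%, against 23.5% of all genes tested. The other lists with more than 2 falls had 3 of 9 such genes among immature factors, 3 of 8 among timing genes, 3 of 5 among growth genes, 2 of 9 among guidance genes, 1 of 4 among cell cycle genes and 0 of 4 among astrocyte markers. Over the 826 called higher the E12 plate lay above them for 49.8%, against 20.5%. Among lists with genes called higher, E12 lay above those plates for 9 of 13 synaptic vesicle release genes, 5 of 6 amino acid receptor genes, 4 of 6 ion channel genes, 3 of 4 habenula transcription factors, 3 of 4 immediate early and heat-shock genes, 2 of 2 timing genes and 1 of 1 chromatin gene. It lay above them for 3 of 8 genes each of the calcium, peptide, guidance and energy lists, 2 of 7 of the receptor and G protein list, 2 of 9 acetylcholine genes and 0 of 1 gene each of the immature factor and growth lists. Nrgn, Gap43 and Igf2bp3 had E12 within the range of those plates. These are examples, not a count over called genes. For a gene near the floor at E11 to E13, the position of the E12 plate cannot show whether plate number matters.

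Cytosolic ribosomal protein genes fell together. Of 78 tested, 59 were lower and 0 higher, with a median log2 fold change of -1.79, and 43 of 54 tested ribosomal protein pseudogenes were lower, against 8.12% lower, 6.03% higher and a median of 0.00966 over all genes tested. Rps29 was at 441 and 309.6 CPM at E18 and 13.1 and 9.81 CPM at P4 (log2 fold change -4.94 ± 0.29 (SE), edgeR adjusted p = 0.00569) and Rpl23a at 737 and 527 CPM at E18 and 25.1 and 29.1 CPM at P4 (log2 fold change -4.45 ± 0.29 (SE), edgeR adjusted p = 0.00569). The pseudogene Rpl31-ps20, at 62.5 and 65.6 CPM at E18 and 3.16 and 4.11 CPM at P4, was among the 12 largest falls. Against the C57BL/6 plates, which held 1.39 to 19.98 CPM of Rpl31-ps20, its change was -1.27 (edgeR adjusted p = 0.253). Reads can be shared between a ribosomal gene and its pseudogenes, so single members are uncertain. Summed over the 78 genes the level was 30242 and 22862 CPM at E18 and 7771 and 7330 CPM at P4. It was 17881 to 26207 CPM on the C57BL/6 E18 plates, 15785 and 16305 CPM at E11, 11388 CPM at E12, and 22619 and 29331 CPM at E13. For 65 of the 78 genes the E12 plate lay below all 4 plates of E11 and E13, against 23.5% of all genes tested. This list and the comparison with E12 were chosen after the values were seen. Ribosomal protein levels therefore differ by stage and by plate number together, and these cannot be told apart.

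**Figure D5:**
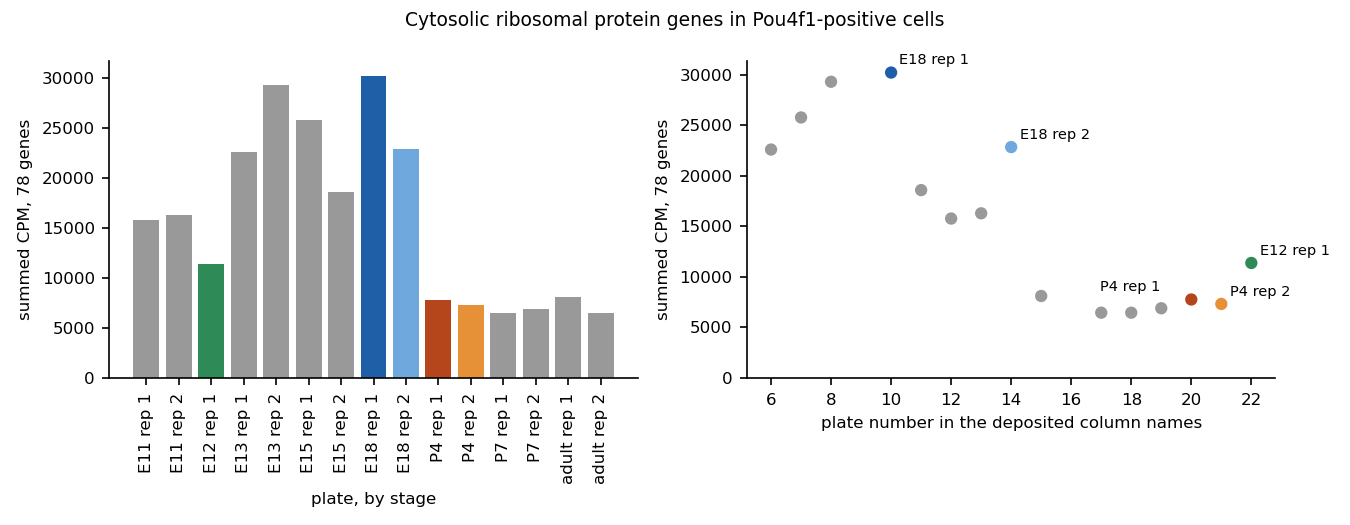
Summed CPM of 78 cytosolic ribosomal protein genes in Pou4f1-positive cells of the 15 plates of the series, by stage and by the plate number in the deposited column names (blue: E18; orange: P4; green: E12). The P4 plates, at 7771 and 7330 CPM, lie low both among stages and among plate numbers, and the E12 plate, number 22, lies below the plates of E11 and E13.

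Unspliced transcripts, counted apart from spliced ones, gave 574 calls among 6789 genes tested (8.45%). Chat (4.49, edgeR adjusted p = 0.00542), Clec18a (6.36, edgeR adjusted p = 0.00382) and Grin3a (4.30, edgeR adjusted p = 0.00382) were higher at P4 in unspliced counts as well. Slc18a3 lies within the span of Chat on the same strand, so unspliced counts of Chat may hold reads of Slc18a3. Igf2bp3 (-3.996, edgeR adjusted p = 0.00547), Mdga1 (-3.86, edgeR adjusted p = 0.00382) and Gap43 (-3.82, edgeR adjusted p = 0.0114) were lower. Of the 84 called genes given above, 37 were called in the same direction in unspliced counts. Another 14 were tested there and missed the threshold (Lmo4, Neurod1, Slc5a7, Tac2, Snap25, Cntn1, Dcc, Msi1, Nova1, Dnmt3a, H3f3a, Smarcc1, Mdh1 and Ache). The remaining 33, Nrgn and Slc17a7 among them, had too few unspliced counts to test.

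Levels at P7, on the next pair of plates of the series, are given as values with no test. Nrgn was at 1616 and 1304 CPM at P7, close to its P4 level, and Slc18a3 at 124 and 103 CPM. Thy1 was higher still at P7, at 411 and 393 CPM, as were Gpr151, at 299.7 and 334 CPM, and Tac2, at 755 and 678 CPM. Sox11 was lower still, at 71.6 and 94.6 CPM. Etv1 and Tenm2 were below their P4 levels, at 1061 and 1003 CPM and at 4276 and 3783 CPM.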

How the data were processed

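The authors deposited unscaled tables of transcripts (total, spliced, unspliced) for each well. Their values are expected counts, that is molecular identifier counts corrected for collisions (46.1% were whole as deposited, and undoing the correction gave whole numbers for 100%). The submitters' processing notes name STAR 2.5.3a, Trim Galore and mm10. The annotation, and whether counting used strand, were not given in the sources used here. Of the 84 called genes given with values, 51 overlap another annotated gene (GENCODE M21) and are uncertain to that extent. All columns were assigned to a labelled plate (0 were left over).

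Because the values are expected counts, where whole counts had been planned for, they were summed per plate over Pou4f1-positive cells and rounded. Spike-in rows (92) were left out of library sizes, levels and tests. Levels are CPM of these sums. Tests used edgeR 4.0.16 (filterByExpr, TMM, glmQLFit, glmQLFTest) under R 4.3.3 with limma 3.58.1, with Benjamini-Hochberg adjustment over all genes tested. DESeq2 1.42.0 was an alternative. The code was tested on simulated counts. The SE of a fold change is its size divided by the square root of F. Intervals are exact at 95% and cover counting error only. No doublet caller was run; wells above 3 times their plate's median count were left out in an alternative. Tables and plots used Python 3.11.15 with numpy 2.4.6, pandas 2.3.3, scipy 1.17.1 and matplotlib 3.10.9.

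Named genes were the 12 largest rises and falls among called genes of at least 50 CPM on both plates of the higher stage, and, in each list, up to 3 called members of highest mean CPM in each direction and the highest that was not called. Called genes were named only where the plates of the stages did not overlap, which held for all 1938. Left out of the largest changes were mitochondrial, sex-linked, hemoglobin and predicted genes. Chat, Chrnb4, Tac1 and the remaining acetylcholine genes were added after their values were seen. Some genes that meet the rule are not reported here. The cells and the lists were chosen with earlier results of these data known. Lists are described by counts and medians, with no test of a list.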

Additional observations from a re-analysis of the deposited data

How the results depend on the processing

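The direction of the 84 called genes given with values held under every alternative that could be fitted, and 0 of the reversals below concern them. These genes were named only where the plates of the stages did not overlap, so leaving out 1 plate could hardly turn a direction. Most other alternatives used the same plates and many of the same cells. A direction that held in those fits therefore says little of its stability. Only the fit with the C57BL/6 plates replaced the E18 plates, with the P4 plates unchanged, and the directions held there too. Calls numbered 1938 (826 higher, 1112 lower), and 0 to 4916 when 1 plate was left out (0 to 2656 higher, 0 to 2260 lower). They numbered 4160 (2331 and 1829) with no filter on low counts, 3337 (1631 and 1706) with 14 plates in 1 fit, 574 of 6789 (270 and 304) in unspliced counts, 989 of 5655 (492 and 497) with each well thinned to 2000 counts, 528 (178 and 350) over all kept wells and 3093 (1393 and 1700) with the C57BL/6 plates for E18. Fewer genes could be tested in unspliced and thinned counts. The other causes were not tested. In thinned wells 73 of the 84 called genes could be tested. The fold change of 23 moved there by over 1.5 times, 13 to smaller and 10 to larger values. The share of calls that were higher moved from 42.6% to 56.0% with no filter and was 33.7% over all kept wells. DESeq2 gave 1949, upper-quartile scaling 2005, library size alone 2023, recovered whole counts 1937, a Pou4f1 minimum of 2 counts 2642 and, chosen after seeing the data, wells with more neuron than radial glia marker counts 2492. Leaving out wells of very high counts, a stricter well filter, 3 neuron markers per well and spliced counts gave 2091, 1880, 1982 and 1869. Of these, the first took out 0 and 10 positive cells at E18 and 1 and 0 at P4. The rule of 3 neuron markers kept 73 of 75 cells on E18 replicate 1 and all cells on the other plates. With so few wells changed, counts near the main one were to be awaited.

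Whether replicate numbers pair the plates is not stated. Same-numbered plates' deviations correlated at 0.00501 over genes, but with n = 2 plates per stage this cannot decide it. The fit with the replicate block called 1335 genes and 73 of the 84, without Sox4, Kcna2, Tubb5, Tubb3, Tubb2b, Cntn1, Dcc, Hmga1, Dnmt3a, Smarcc1 and Ccnd1. Calls among the 84 were also lost with DESeq2 (Caly, Tac2, Hmga1), upper-quartile scaling or library size alone (Hmga1), no filter (Smarcc1), 14 plates (Pcp4, Hmga1, Ccnd1), spliced counts (Cacna1a, Cacng2, Dnmt3a), a Pou4f1 minimum of 2 (Kcna2, Hmga1), thinned wells (Rab3a, Glrb, Atp1b2, Ache), no wells of very high counts (Nxph1, Hmga1) and the stricter filter (Dnmt3a). Over all kept wells 46 were lost. The falls were Pax6, Nckap5, Mdk, Gap43, Lmo4, Nfib, Sox4, Cacna1a, Cacng2, Tubb5, Tubb3, Tubb2b, Dcc, Nrxn3, Cntn2, Msi1, Nova1, Smarcc1, Cdk4, Ccnd1 and Hspa8. The rises were Caly, Nr4a2, Lmo3, Neurod1, Chrna3, Cartpt, Tac2, Stxbp5l, Snap25, Rab3a, Pcp4 and Camk2d. Further rises were Kcna2, Glrb, Tuba4a, Tenm2, Cntn1, Chl1, Hmga1, Dnmt3a, Mdh1, Atp1b2, Ache, Chrna5 and Chrna6.

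Log2 fold changes that turned sign all belong to genes without a call. In unspliced counts values were -1.29 for Zic1, -0.998 for Gnas and -0.18 for Ric3. With the C57BL/6 plates values were -0.0488 for Gria1, 0.24 for Cdkn1b, 0.20 for Hsp90ab1, -0.044 for Chrna4 and 1.19 for Lynx1. Over all kept wells values were 0.0385 for Hsp90ab1. With no filter values were 0.13 for Cdkn1b, 0.16 for Hsp90ab1 and 0.0578 for Lynx1. In the fit of 14 plates values were 0.0375 for Hsp90ab1. With library size alone values were -0.078 for Chrnb2. Under the replicate block values were 0.0878 for Tac1 and 0.0298 for Lynx1. Chrnb2, near 0, was at -0.0781 with upper-quartile scaling, -0.0863 in spliced counts, -0.21 with a Pou4f1 minimum of 2, -0.94 in thinned wells, -0.00234 without wells of very high counts, -0.0246 with 3 neuron markers, -0.0376 with the stricter filter and -0.12 with more neuron than radial glia counts. With 1 plate left out the values ran from -0.95 to 0.48 for Ly6h, -0.27 to 1.75 for Gria1, -0.20 to 3.31 for Cntnap2, -0.33 to 0.23 for Cdkn1b, -0.13 to 0.0344 for Hsp90ab1, -1.29 to 3.17 for Tac1, -0.24 to 0.38 for Chrnb2 and -1.07 to 1.92 for Lynx1. Depth limits the genes with 0 to 3 counts at E18, where 3 counts correspond to 3.67 and 2.43 CPM on the E18 plates and 0.526 and 0.475 CPM at P4.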
